A study of Mus musculus with 12 samples.

Results

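NF-κB is a family of transcription factors that act as dimers. In resting cells most dimers are held in the cytoplasm by IκB proteins. An IκB kinase complex marks these inhibitors for destruction, the dimers enter the nucleus, and among the genes they switch on are their own inhibitors, so that the response limits itself. Cytosolic DNA sensed by cGAS and STING activates the kinase TBK1, which drives the interferon response and can also feed into NF-κB. In fibroblasts NF-κB is known for inducing chemokines and adhesion molecules.

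Expression of 10 genes of this pathway was followed among the 17571 genes of the expression table. They were found by mouse symbol through their Entrez Gene identifiers, and Tlr2 and Slpi were chosen by their measured values, which were known to be lower in mock than in the other libraries. By role they are the factor genes Nfkb1, Nfkb2 and Relb, the feedback genes Nfkbia, Tnfaip3 and Birc3, the adhesion genes Icam1 and Vcam1, the receptor gene Tlr2 and the secreted inhibitor gene Slpi. The questions were whether these genes respond to plasmid, whether they respond to BX795 alone, and whether mock libraries stand apart from all others.

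The cells were L929, an established line of fibroblasts from C3H/An mouse connective tissue. The study sequenced 4 groups of 3 libraries each. Mock cells received DMSO, and pEGFP-N1 cells received DMSO for 1 h and then the GFP plasmid pEGFP-N1, with collection after 6 h. BX795 cells received 0.5 uM BX795, an inhibitor of TBK1 that also acts on other kinases, and BX795 plus pEGFP-N1 cells received the same pretreatment before the plasmid. Whether mock and BX795 cells were given transfection reagent is not given in the sources used here, so plasmid and reagent cannot be told apart in comparisons with these groups. The labels do not say that replicates were separate cultures, and p-values therefore measure only the spread between these libraries. Values are FPKM, fragments normalised to transcript length and library size, and the read depth behind them is unknown. Of 8 fibroblast markers, 7 reached 1 FPKM (Thy1 did not). Of 7 macrophage markers only Cd68 did, with the defining markers Ptprc and Adgre1 at 0.04 FPKM or less, and none of the epithelial or endothelial markers did.

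Before any comparison, 2 libraries went against the others of their label. The interferon-stimulated gene Ifit1 was at 96.67, 0 and 95.24 FPKM in pEGFP-N1 replicates 1, 2 and 3, and at 92.64, 0.17 and 0.57 FPKM in BX795 plus pEGFP-N1 replicates 1, 2 and 3. It lay between 0.04 and 0.45 FPKM in mock and BX795 libraries. The library labelled pEGFP-N1 replicate 2 thus lacked the interferon signal of its group, and the library labelled BX795 plus pEGFP-N1 replicate 1 carried it. Whether these 2 libraries were exchanged was not tested. The study also measured interferon genes in its sequenced samples by RT-qPCR, which was not analysed here. The labels were kept, and every mean and difference of the plasmid groups rests on them. For comparisons that involve these groups, counts of tested members called are given with and without both libraries. Some other values are given over all libraries only. Because the pair was singled out by measured interferon genes, values without it are not independent evidence.

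Short stretches that match the NF-κB consensus were looked up to show what sequence lies near the starts of the members. Each stretch comes from RefSeq promoter windows on GRCm38.p6, is written 5′ to 3′ on the strand of its gene, and has the match in capitals. In Tlr2 and in Nfkb2 the capitals cover 2 overlapping matches.

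Nfkbia: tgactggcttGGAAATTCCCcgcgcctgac

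Tnfaip3: gtgactggaatttccatcGGAAATCCCCct

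Tlr2: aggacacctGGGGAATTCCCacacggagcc

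Nfkb2: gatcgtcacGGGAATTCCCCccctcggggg

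The Nfkbia stretch is at chr12:55492657-55492686 on the minus strand, with its match 29 to 20 bases before the RefSeq start, upstream of the gene in GENCODE M21. The Tnfaip3 stretch is at chr10:19015411-19015440 on the minus strand, 12 to 3 bases before a RefSeq start and in an intron of a longer GENCODE transcript. The Tlr2 stretch is at chr3:83841761-83841790 on the minus strand, with the match 173 to 163 bases before the start and upstream of the gene. The Nfkb2 stretch is at chr19:46304689-46304718 on the plus strand, 39 to 29 bases before 1 of 3 RefSeq starts and in an exon of a longer transcript. Both strands were searched over 250 bases before each start. Of 7 members with an entry, 4 had a match. Matches lay in 6 of the 10 windows of these 7 members, against 7.25% of the 32851 windows of all genes. Of these 6 windows, 3 belong to Nfkb2, as alternative starts of 1 gene. Nfkb2 and Tnfaip3 had further matches that are not printed. Slpi, Birc3 and Icam1 had none in these windows, and Nfkb1, Relb and Vcam1 had no entry. These matches are descriptions of sequence, and binding was not measured.

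Of the 10 genes, 7 were at or above 1 FPKM in all 12 libraries. In the 5 of them besides Tlr2 and Slpi, namely Nfkb1, Nfkb2, Relb, Nfkbia and Tnfaip3, every mock library was below all 9 others. Among all 10412 genes with at least 1 FPKM in at least 3 libraries, 1.93% showed mock below all others. Tlr2 and Slpi were selected on this pattern, so that they are left out of the counts against mock and their differences from mock are descriptions without a test. All members were chosen with earlier results of these data known, so the count of the 5 and their tests are not independent of these data. Among the 7, the difference from mock was largest for Tnfaip3 and smallest for Nfkb1 by ratio of means, 3.44 and 1.2 for the 9 other libraries over mock. In Nfkb2, Relb, Nfkbia and Tnfaip3 the lowest 3 of the 9 were the libraries with high Ifit1, which was not so in Nfkb1, Tlr2 or Slpi. The same order held for 22.7% of all genes tested. It was seen in the data and was not tested.

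**Figure D1:**
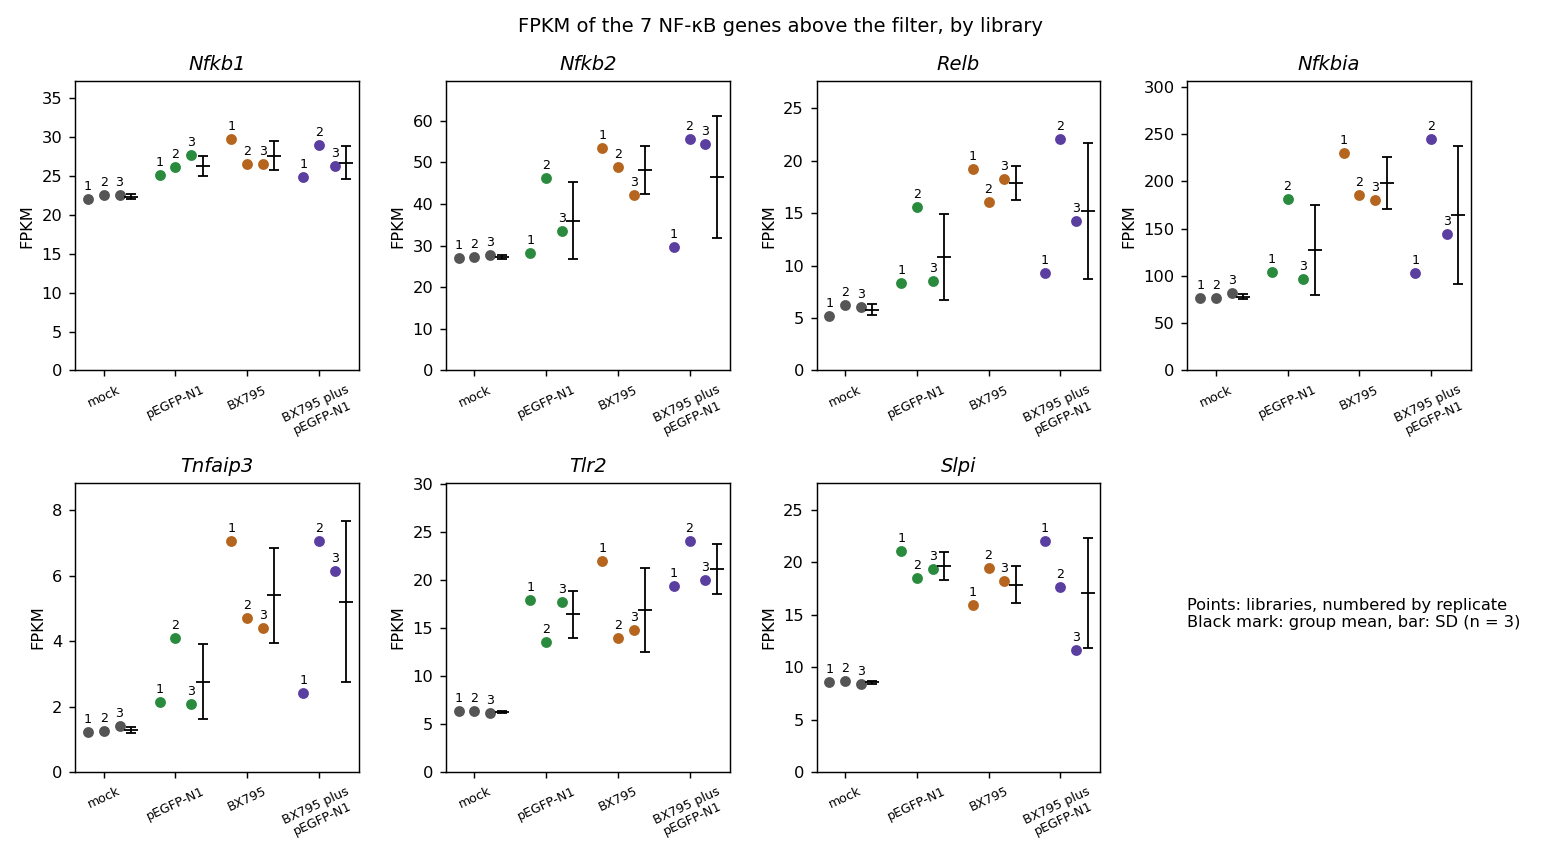
FPKM (vertical axes, from 0) of the 7 members above the filter in each library of the 4 groups (horizontal axes), numbered by replicate, with the group mean and SD in black. All mock points lie below all others in every panel, which for Tlr2 and Slpi the choice of genes fixed. In Nfkb2, Relb, Nfkbia and Tnfaip3, pEGFP-N1 replicate 2 lies near the BX795 libraries and BX795 plus pEGFP-N1 replicate 1 near pEGFP-N1 replicates 1 and 3.

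Among the factor genes, Relb encodes a partner of the noncanonical pathway that pairs mainly with the p52 product of Nfkb2. Relb (Entrez Gene 19698, chr7:19606217-19629438) had FPKM values of 5.18, 6.21 and 6.03 in the mock libraries. BX795 alone gave 19.25, 16.1 and 18.27. The pEGFP-N1 libraries gave 8.3, 15.61 and 8.55, and those with BX795 plus pEGFP-N1 gave 9.25, 22.09 and 14.28. No BX795 or plasmid library overlapped the mock range. In pEGFP-N1 the library that went against its label was the highest of the 3, and in BX795 plus pEGFP-N1 it was the lowest.

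Nfkb2 encodes the precursor p100, which itself restrains Relb dimers until it is processed to p52. Nfkb2 (Entrez Gene 18034, chr19:46304320-46312385) measured 26.97, 27.14 and 27.69 FPKM in mock libraries and 53.45, 48.81 and 42.16 under BX795. After plasmid the values were 28.25, 46.34 and 33.46 FPKM without the inhibitor and 29.57, 55.64 and 54.37 with it. The lowest plasmid library exceeded the highest mock library only narrowly.

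Nfkb1 encodes p105, the precursor of the classical p50 subunit. Nfkb1 (Entrez Gene 18033, chr3:135584655-135691547) varied little, with 22.04, 22.54 and 22.51 FPKM in mock. The pEGFP-N1 values were 25.09, 26.2 and 27.67 FPKM. Under BX795 they were 29.79, 26.53 and 26.61, and under the combination 24.83, 29.06 and 26.35. The 3 treated groups overlapped each other, and the mean level with BX795 was 27.6 ± 1.86 FPKM against 22.4 ± 0.280 in mock (SD, n = 3 each).

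Of the feedback genes, Nfkbia encodes IκBα, the inhibitor that NF-κB restores after its own activation. Nfkbia (Entrez Gene 18035, chr12:55489410-55492647) was the most abundant member in mock, at 76.72, 76.23 and 81.4 FPKM. Its BX795 values were 229.64, 185.04 and 179.93. Those of pEGFP-N1 were 104.3, 181.51 and 96.16, and those of the combined treatment 102.75, 244.83 and 144.32. Replicate 2 of pEGFP-N1 was within the BX795 range, and replicate 1 of BX795 plus pEGFP-N1 was within the range of the other 2 pEGFP-N1 libraries.

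Tnfaip3 encodes A20, a ubiquitin-editing enzyme that shuts down signalling to the IκB kinases. Tnfaip3 (Entrez Gene 21929, chr10:19000910-19015657) was low in mock, with FPKM of 1.22, 1.26 and 1.4, whereas BX795 libraries showed 7.07, 4.71 and 4.4. Plasmid alone gave 2.13, 4.09 and 2.07, and plasmid after BX795 gave 2.41, 7.06 and 6.13. Its mean with BX795 was 4.17 times the mock mean, the largest such ratio among the 7 genes.

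The other 3 genes did not pass the filter. Birc3 (Entrez Gene 11796, chr9:7848699-7873186), which encodes the ubiquitin ligase cIAP2, lay between 0.19 and 0.40 FPKM over the 12 libraries. Vcam1 (Entrez Gene 22329, chr3:116109949-116129688) lay between 0.19 and 0.61 FPKM and Icam1 (Entrez Gene 15894, chr9:21015985-21028817) between 0.02 and 0.18 FPKM. Both encode adhesion molecules that hold leukocytes to activated cells. Mock overlapped the 9 other libraries in each of the 3 genes. All 3 Icam1 values with BX795 plus pEGFP-N1 (0.13, 0.18 and 0.14) were above the 3 in mock (0.05, 0.09 and 0.02). With no filter on low values that difference was 0.13 on the log2 scale (95% interval 0.04 to 0.21, limma adjusted p = 0.406), and none of the 3 genes was called in any comparison.

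Tlr2 encodes a receptor of bacterial lipoproteins, itself a target of NF-κB. Tlr2 (Entrez Gene 24088, chr3:83836272-83841767) was even across mock, with 6.37, 6.37 and 6.19 FPKM. The plasmid libraries gave 17.93, 13.59 and 17.76, those with BX795 gave 21.97, 14 and 14.82, and the combination gave 19.34, 24.12 and 20.02. The lowest of the 9 was still 13.59 against a highest mock value of 6.37, and it came from pEGFP-N1 replicate 2.

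Slpi encodes a secreted leukocyte protease inhibitor with anti-inflammatory activity. Slpi (Entrez Gene 20568, chr2:164354070-164389095) was likewise even in mock, with 8.6, 8.68 and 8.36 FPKM. Its highest group mean was in pEGFP-N1 libraries, which gave 21.05, 18.48 and 19.4. With BX795 the values were 15.97, 19.43 and 18.27. The combined treatment gave 22.08, 17.62 and 11.6, so that the highest and the lowest value outside mock fell in the same group.

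With BX795 alone the 5 testable members were all higher than in mock without overlap, and neither of the libraries that went against their label is in these groups. Of all tested genes 23.6% were higher in every BX795 library than in every mock library. In the limma fit over all 12 libraries, which share 1 estimate of the spread, none of the 5 was called at an adjusted p under 0.05. The differences on the log2(FPKM + 1) scale and adjusted p-values from limma were 1.47 ± 0.27 (SE) and 0.0845 for Relb, and 1.46 ± 0.30 and 0.108 for Tnfaip3. They were 1.32 ± 0.28 and 0.120 for Nfkbia, 0.79 ± 0.22 and 0.219 for Nfkb2, and 0.29 ± 0.07 and 0.167 for Nfkb1. In this fit 7 genes were called (0.0672% of those tested), although 1442 had an unadjusted p under 0.05. In bulk RNA a change per cell cannot be told apart from a change in how many cells express a gene.

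This result depended on which libraries set the spread. With only the 6 mock and BX795 libraries in the limma fit, all 5 members were called higher, with the same differences and adjusted p-values of 4.572e-05 for Relb, 6.335e-05 for Nfkbia, 0.000285 for Tnfaip3, 0.0002864 for Nfkb2 and 0.00744 for Nfkb1. The same fit called 12.7% of all tested genes higher and 7.97% lower. Among the other listed genes it called 10 of 39 tested members of the NF-κB machinery higher and 3 lower, and 11 of 25 tested NF-κB targets higher and 2 lower. By size, and named after their values were seen, the machinery calls were led by Nfkbie (1.52 on the log2 scale) and Traf1 (1.03) and on the lower side by Il1rap (-0.45). Those of the targets were led by Cxcl2 (1.89) and the cytokine gene Lif (1.58) and on the lower side by the survival gene Bcl2l1 (-0.76). Of the fibroblast markers 3 of 7 were called higher in it (Col1a1, Col3a1 and Pdgfrb, named after their values were seen), by 0.29 to 0.34 on the log2 scale, and their part in the result was not tested. Without the 2 libraries that went against their label, which are in neither group but add to the spread, all 5 were again called higher, among 8.96% of all genes. Leaving out 1 library of the other groups at a time gave 3 calls among the members without pEGFP-N1 replicate 2, 4 without BX795 plus pEGFP-N1 replicate 1, and 1 (Relb) without its replicate 2, where 149, 82 and 11 of the 10412 genes were called. Tlr2 differed from mock by 1.27 and Slpi by 0.98 on the log2 scale, as descriptions. The exact permutation test gave 0.1 for each of the 5 members, the smallest p that 3 against 3 libraries allow (two-sided).

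With the plasmid alone the factor and feedback genes differed from mock by at most 0.75 on the log2 scale, none of them past the test. The 5 testable members were all higher in every pEGFP-N1 library than in every mock library, as were 5.52% of all genes tested. The differences on the log2 scale were 0.75 ± 0.27 (SE) for Relb, 0.67 ± 0.30 for Tnfaip3, 0.64 ± 0.28 for Nfkbia, 0.36 ± 0.22 for Nfkb2 and 0.22 ± 0.07 for Nfkb1. None of the 5 was called by limma, with adjusted p-values from 0.712 for Nfkb1 to 1 for Nfkb2, where 0.0672% of all genes were called. Tlr2 and Slpi were higher by 1.24 and 1.11, without a test. These comparisons share the mock libraries with those of BX795.

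Without the library labelled pEGFP-N1 replicate 2 and that labelled BX795 plus pEGFP-N1 replicate 1, which leaves 2 libraries in each plasmid group, the plasmid differences were 0.47 for Relb, 0.44 for Tnfaip3, 0.36 for Nfkbia and 0.17 for Nfkb2, and again 0 of 5 were called by limma (3.76% of all genes were called). Nfkb1 was at 0.23. The Tlr2 and Slpi differences were 1.37 and 1.15, as descriptions.

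BX795 plus pEGFP-N1 over mock gave 1.34 for Tnfaip3, 1.18 for Relb, 0.97 for Nfkbia, 0.70 for Nfkb2 and 0.25 for Nfkb1 on the log2 scale. Of all genes, 7.15% lay above mock without overlap in this group, as the 5 testable members did. None of the 5 was called (0.106% of all genes were), with limma adjusted p-values between 0.170 and 0.364. Without both libraries that went against their label all 5 were called higher, at 1.73 for Tnfaip3, 1.47 for Relb, 1.26 for Nfkbia, 0.99 for Nfkb2 and 0.30 for Nfkb1, with limma adjusted p-values between 9.463e-05 and 0.02853, among 4.98% of all genes called higher. Without BX795 plus pEGFP-N1 replicate 1 alone, 4 were called, among 131 of all genes. Tlr2 and Slpi stood 1.59 and 0.88 above mock over all libraries, and 1.65 and 0.68 without both libraries, as descriptions.

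**Figure D2:**
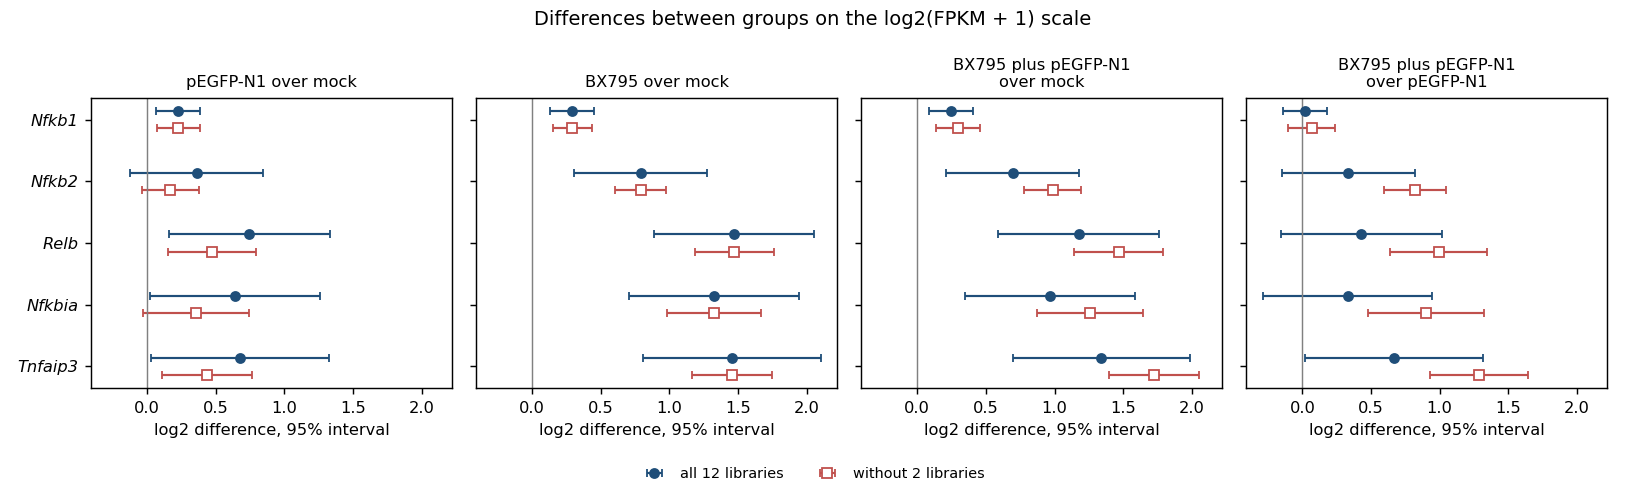
Differences between groups on the log2(FPKM + 1) scale (horizontal axes) with 95% intervals from limma for the 5 testable members (vertical axis), over all 12 libraries (circles) and without the 2 libraries that went against their label (open squares). BX795 differences keep their size with narrower intervals, whereas those of BX795 plus pEGFP-N1 over pEGFP-N1 become larger, from 0.43 to 0.995 for Relb.

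All non-mock libraries were then set against mock. The 5 testable members were higher by 1.16 for Tnfaip3, 1.13 for Relb, 0.98 for Nfkbia, 0.62 for Nfkb2 and 0.25 for Nfkb1 on the log2 scale, averaged over the 3 other groups, beside 1.37 for Tlr2 and 0.99 for Slpi as descriptions. The exact permutation test of the 3 mock against the 9 other libraries gave p = 0.009091 for each, two-sided and not adjusted, the smallest p this design allows and one that every gene without overlap reaches. The limma adjusted p was 0.0686 for Relb, 0.0891 for Tnfaip3, 0.124 for Nfkbia and for Nfkb1, and 0.244 for Nfkb2, and 0.259% of all genes were called. Without both libraries that went against their label all 5 were called higher, as were 3.74% of all genes. Leaving out BX795 plus pEGFP-N1 replicate 1 alone also gave 5 calls, among 137 of all genes, and leaving out pEGFP-N1 replicate 2 alone gave 1 (Relb), among 50.

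For BX795 added to the plasmid, both groups hold 1 of the 2 libraries that went against their label. Over all libraries, limma called 0 of 7 members in BX795 plus pEGFP-N1 over pEGFP-N1 and 0 genes in all, with 166 genes at an unadjusted p under 0.05. The difference was 0.67 (95% interval 0.02 to 1.31) for Tnfaip3, 0.43 (-0.15 to 1.02) for Relb and 0.33 (-0.29 to 0.95) for Nfkbia. These values moved with single libraries. Without BX795 plus pEGFP-N1 replicate 2 they were 0.43 for Tnfaip3, 0.14 for Relb and -0.0041 for Nfkbia, and without its replicate 1 they were 1.05, 0.72 and 0.62. Nfkb2 was at 0.34, and between 0.18 without pEGFP-N1 replicate 1 and 0.63 without BX795 plus pEGFP-N1 replicate 1. Tlr2 was the only member without overlap between these groups, at 0.35 (0.01 to 0.69, limma adjusted p = 0.959, exact permutation p = 0.1), where 2.8% of all genes did not overlap. Slpi differed by -0.23 (-0.60 to 0.14).

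Without both libraries, Tnfaip3 was higher by 1.29 ± 0.16 (SE), Relb by 0.995 ± 0.160, Nfkbia by 0.90 ± 0.19 and Nfkb2 by 0.82 ± 0.10 in BX795 plus pEGFP-N1 than in pEGFP-N1. These 4 of 7 were called, with limma adjusted p-values of 0.0004542, 0.002061, 0.009567 and 0.0004542. Of all genes, 10.5% were called higher and 7.6% lower. In these 4 genes the libraries with high Ifit1 were the lowest outside mock. Leaving out libraries by their interferon genes therefore favours this direction, and the p-values are not independent evidence. Of the pathway lists, 9 of 39 machinery genes and 7 of 25 further targets were called higher in that fit, and 1 of each lower. Nfkb1 differed by 0.07 and Tlr2 by 0.29, neither called, and Slpi by -0.47 (adjusted p = 0.0506). Calls of interferon genes are given no weight in this fit, since these genes singled out the libraries left out of it. Of the 7 tested fibroblast markers 4 were called higher (Col1a1, Col1a2, Col3a1 and Pdgfrb, named after their values were seen), by between 0.32 and 0.70, and their part in the result was not tested.

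For the plasmid added to BX795 no difference was called. Limma called 0 of 7 members and 0 genes in BX795 plus pEGFP-N1 over BX795, with 579 genes at an unadjusted p under 0.05. The 95% intervals were -0.21 to 0.11 for Nfkb1, -0.58 to 0.39 for Nfkb2, -0.88 to 0.29 for Relb, -0.97 to 0.26 for Nfkbia and -0.76 to 0.53 for Tnfaip3. Tlr2 was at 0.33 (-0.01 to 0.66) and Slpi at -0.10 (-0.47 to 0.27). Without both libraries the Relb interval was -0.33 to 0.32, and 0 members were called.

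The test of whether the plasmid acts differently with and without BX795 is the difference of the plasmid effects. It was 1.04 ± 0.38 (SE) for Relb, 0.99 ± 0.40 for Nfkbia, 0.79 ± 0.42 for Tnfaip3, 0.46 ± 0.31 for Nfkb2 and 0.27 ± 0.10 for Nfkb1, positive where the plasmid difference was larger without BX795. None was called (limma adjusted p = 0.842 for each, 0 genes called and 407 at an unadjusted p under 0.05). For Tlr2 and Slpi it was 0.92 and 1.21, as descriptions. Without both libraries it was 0.48 for Relb, 0.42 for Nfkbia, 0.17 for Tnfaip3, -0.03 for Nfkb2 and 0.22 for Nfkb1, again with 0 of 5 called, where 1.27% of all genes were.

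**Figure D3:**
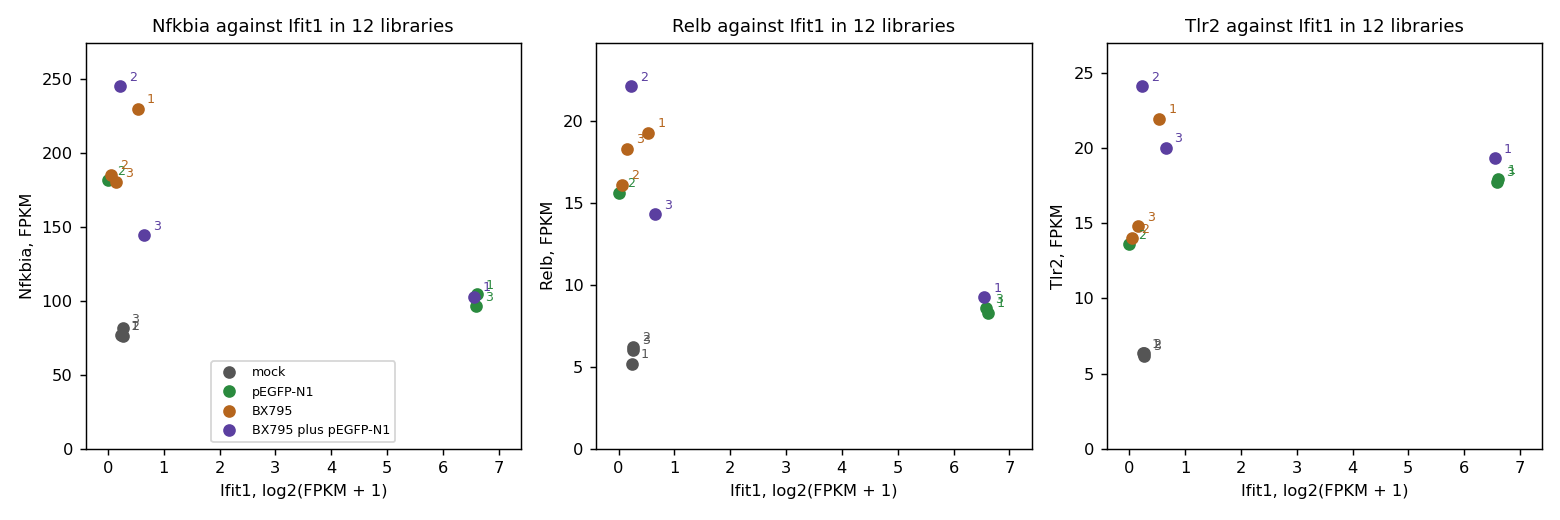
FPKM of Nfkbia, Relb and Tlr2 (vertical axes) against Ifit1 on the log2(FPKM + 1) scale (horizontal axes) in the 12 libraries, coloured by label and numbered by replicate. The 3 libraries with high Ifit1 hold Nfkbia between 96.16 and 104.3 FPKM, under the other 6 libraries outside mock, while their Tlr2 between 17.76 and 19.34 FPKM is inside the range of those 6.

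The rest of the pathway was taken from lists of 43 machinery genes and 43 further target genes, of which 39 and 25 passed the filter. Over all 12 libraries limma called few of them. For pEGFP-N1 over mock 0 machinery genes and 2 targets were called, both higher, namely the monocyte chemoattractants Ccl2 and Ccl7. Their differences were 1.17 ± 0.14 (SE) and 1.11 ± 0.17 on the log2 scale with limma adjusted p-values of 0.0128 and 0.0473. For BX795 over mock Ccl2 was called, at 1.08 (limma adjusted p = 0.0119). For BX795 plus pEGFP-N1 over mock both were called, at 1.28 and 1.24.

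The mock values of Ccl2 were 372.37, 375.73 and 340.98 FPKM, and the 9 others lay between 668.16 and 987.81. Like Tlr2 it was separated from mock in every library whether or not interferon genes were high. Against mock, the 3 other groups together gave 3 target genes called higher (Ccl2, Ccl7 and the stress gene Gadd45b) and 1 machinery gene, the TNF-family receptor gene Cd40. The list medians for this contrast were 0.08 for the machinery and 0.07 for the targets, against 0.01 for all genes tested.

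Other members of these lists stood apart from mock without being called over all libraries. The IκBε gene Nfkbie, a further feedback inhibitor, gave 4.32, 3.99 and 4.2 FPKM in mock libraries and 14.78, 13.8 and 12.95 under BX795. Plasmid libraries gave 5.04, 10.32 and 5.12, and combined ones 5.34, 15.93 and 11.26, with the same 3 libraries lowest outside mock as in Relb and Nfkbia. The neutrophil chemokine gene Cxcl2 ranged from 4.11 to 4.59 FPKM in mock and from 13.76 to 29.56 under BX795. Its relative Cxcl1 ranged from 103.41 to 107.78 and from 171.47 to 352.74, respectively. In contrast Il6, a cytokine gene, was low and had its highest values in the plasmid libraries with interferon signal, 2.44, 2.14 and 1.93 FPKM, against 0.41 to 0.56 FPKM in mock. The immediate-early gene Ier3 went the other way, from 51.57 to 53.35 FPKM in mock down to 30.44 to 46.25 FPKM in the others.

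**Figure D4:**
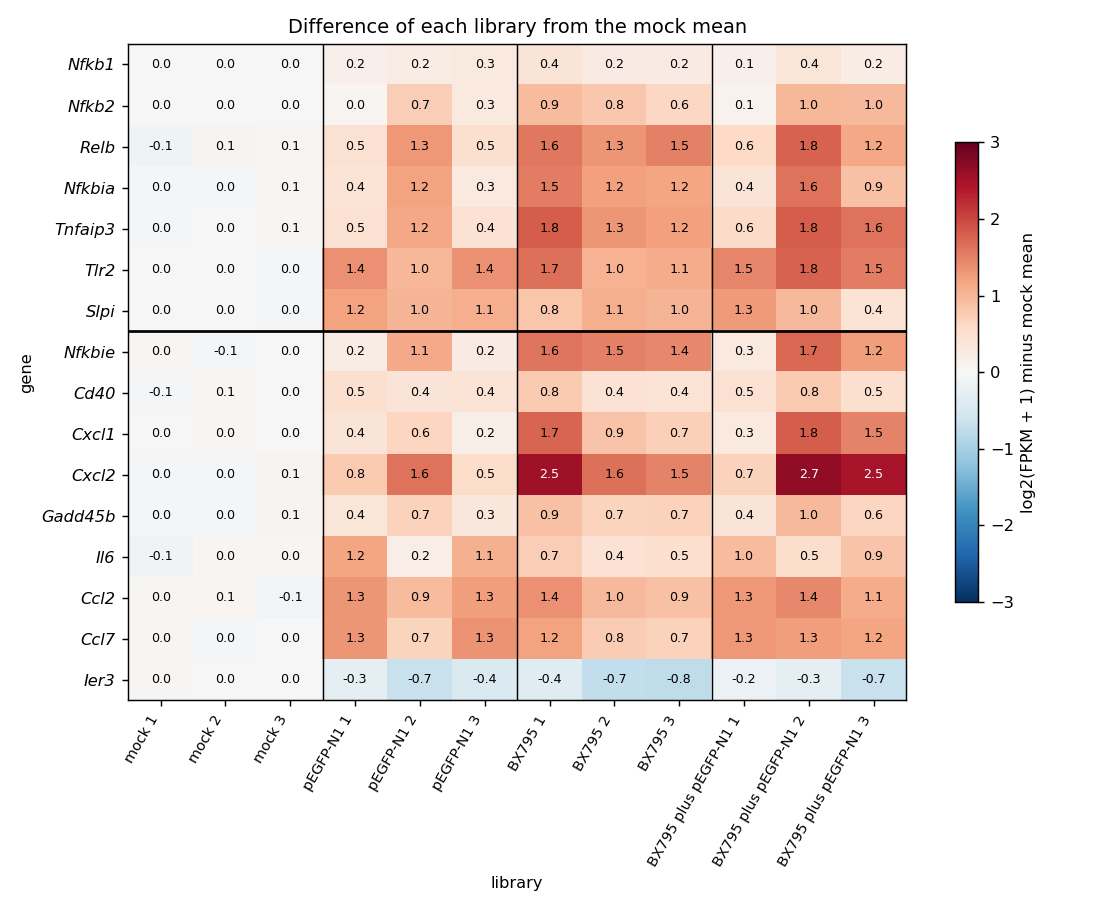
Difference of each library (columns, by group and replicate) from the mock mean on the log2(FPKM + 1) scale (colour and printed value) for the 7 expressed members (above the line) and 9 further genes of the pathway lists (below it). Nfkbie, Cxcl1 and Cxcl2 have their 3 lowest values outside mock in pEGFP-N1 replicates 1 and 3 and BX795 plus pEGFP-N1 replicate 1, while Ccl2, Ccl7 and Cd40 are raised in all 9 libraries outside mock.

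Of 6 genes of TBK1 and related kinases and adaptors 0 were called in any comparison over all libraries. Tbk1 itself, the target of BX795, lay between 20.86 and 21.91 FPKM in mock and between 18.73 and 21.16 FPKM elsewhere. Of 19 Toll-like receptor and partner genes 8 were tested and 0 were called over all libraries. Tlr4, the receptor of endotoxin, lay between 6.1 and 6.57 FPKM in mock and between 4.14 and 6.37 FPKM elsewhere, while Tlr5, the flagellin receptor, lay between 3.8 and 4.45 and between 2.78 and 8.12 FPKM. Both overlapped mock over the 9 libraries. With only mock and BX795 libraries in the fit, 3 of the 8 were called higher, among them Tlr5 by 0.34 (limma adjusted p = 0.0224), and 1 of the 6 kinase and adaptor genes lower, beside 12.7% of all genes higher and 7.97% lower. For BX795 plus pEGFP-N1 over pEGFP-N1 without both libraries that went against their label, 2 of the 8 were called higher, among them Tlr5 by 0.88 (limma adjusted p = 0.0055), and 1 lower, as was 1 of the 6, beside 10.5% of all genes higher and 7.6% lower. The factor gene Rela was at 46.45 to 48.0 FPKM in mock and 45.56 to 60.33 FPKM elsewhere. For BX795 over mock it was called higher by 0.22 with only these groups in the fit (limma adjusted p = 0.0138) and without both libraries that went against their label (0.0163), but not over all libraries. Tbk1, Tlr4, Tlr5 and Rela were named after their values were seen.

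The genes most alike to each member over the 12 libraries were ranked by Pearson's r, which is given as a description with no test, since the libraries share their treatment groups. Relb and Nfkbia were each other's closest match at 0.985, followed by Gadd45b for Relb (0.982) and Nfkbie for Nfkbia (0.977). Tnfaip3 was closest to Cxcl2 (0.992) and Psd (0.980), and Nfkb2 to Sik1 (0.984) and Slc43a2 (0.982). Nfkb1 was closest to Cd40 (0.940) and Pim1 (0.933). Tlr2 was closest to Ccl2 (0.984), then Tmem106a (0.965), Ccl7 (0.963) and Cd40 (0.949). Slpi had other companions, Tapbp (0.964), Fbln5 (0.955), Irf1 (0.942), and Bbc3 and Ddr1 (0.937 each). Only the few highest-ranked genes of each member were looked at, and among these no member other than Relb and Nfkbia appeared for another.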

How the data were processed

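RNA of 12 L929 libraries was sequenced on a BGISEQ-500. The authors aligned reads with Bowtie2 2.2.5 and quantified genes with RSEM on GRCm38.p5, and the deposited values are FPKM per gene, normalized for gene length and library total. FPKM holds no counts, so the depth, and with it counting error, is unknown. Genes are named by Entrez identifiers, of which 17450 of 17571 were matched to RefSeq symbols, and coordinates are from GENCODE M21 (GRCm38). RSEM shares reads between similar genes.

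Values were analysed as log2(FPKM + 1) with limma 3.58.1 (R 4.3.3; 4 group means, trend) for 10412 genes with at least 1 FPKM in at least 3 libraries. Genes were called at a Benjamini-Hochberg adjusted p under 0.05 over all genes. Fold changes on this scale understate those of low genes. Members were also compared by two-sided exact permutation tests (Python 3.11.15). The study's own method tests read counts, which FPKM does not allow. No 2 libraries held identical values. The fit was tested on simulated data for pEGFP-N1 over mock. Noise was independent there and no library went against its label, so that check does not cover this feature of the data.

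The members and lists were chosen with earlier results of these data known. Beyond the members, genes were named when called in a comparison, when mock lay outside all others by at least 0.5 on the log2 scale, or as most alike to a member, together with the interferon genes. Of the genes most alike to a member, not every one is reported here. Alternatives were another pseudocount, other filters, normalizations and thresholds, the fit restricted to both groups of a comparison, a block for replicate number, limma without its trend, and libraries left out.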

Additional observations from a re-analysis of the deposited data

How the results depend on the processing

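The 5 testable members kept their direction in the 4 comparisons over mock under every alternative that gave them a value (Tnfaip3 did not reach the stricter filter, a mean of 5 FPKM). How many of them were called did not. For BX795 over mock 0 were called over all 12 libraries, 5 with only the groups compared in the fit, 5 without both libraries that went against their label, and 0 to 4 with 1 library left out. For BX795 plus pEGFP-N1 over mock 5 were called without both libraries and 0 to 4 with 1 left out. For the 3 other groups over mock these counts were 5 and 0 to 5. For BX795 plus pEGFP-N1 over pEGFP-N1 they were 4 of 7 and 0. In each case the cause was not tested. With 1 library left out, all genes called ranged from 0 to 149 for BX795 over mock and from 3 to 137 for the 3 other groups. At the thresholds of the study's methods 0 genes were called in any comparison of the fit over all 12 libraries. Without both libraries that went against their label, the number of all genes that passed these thresholds was not counted. Of the 6 listed interferon genes, Ifit1, Rsad2, Isg15, Oasl1 and Cxcl10 passed them there for BX795 plus pEGFP-N1 over pEGFP-N1. Leaving out these libraries by their interferon genes fixes that outcome, which supports nothing.

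Signs turned for some differences that were not called over all libraries. For BX795 plus pEGFP-N1 over BX795 without both libraries they were 0.0035 for Nfkb1, 0.20 for Nfkb2 and 0.27 for Tnfaip3, and with libraries left out they ranged from -0.11 to 0.0064, from -0.25 to 0.20, from -0.35 to 0.27, and for Slpi from -0.30 to 0.14. Over pEGFP-N1 the ranges were -0.039 to 0.071 for Nfkb1, -0.0041 to 0.90 for Nfkbia and -0.47 to 0.0080 for Slpi. The difference of plasmid effects ranged from -0.027 to 0.61 for Nfkb2. The cause was not tested.

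Groups share replicate numbers, but whether these numbers pair the libraries stayed undecided. Of 18 same-numbered pairs of libraries, 6 had deviations correlated above 0.1, and 8 of 12 libraries correlated best with their own number. The mean correlation was 0.115 for the same number and -0.066 for other numbers. With the replicate number as a block, 1 member (Relb) was called for the 3 other groups over mock, among 33 of all genes. No member was called elsewhere in that fit. Of all genes it called 7 for BX795 over mock, 5 for pEGFP-N1 over mock and 6 for the combined treatment over mock. In its other comparisons 0 genes were called. Read depth is unknown, so counting error for Birc3, Icam1, Vcam1 and Tnfaip3, the lowest members, could not be given.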
